A study of Caenorhabditis elegans with 5 samples.

Results

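The V-ATPase a subunit is encoded in C. elegans by 4 genes, unc-32, vha-5, vha-6 and vha-7, and their transcripts were measured in Day 6 adults and in L4 larvae. The 4 genes were picked by their symbols in the deposited count tables and are 4 of 19176 features. The series holds RNA-seq of whole wild type N2 animals, with 3 libraries from adults on Day 6 of adulthood and 2 from larvae at L4, the last larval stage. Day 6 adults and L4 larvae were both grown at 20° from L1 on plates with 2 mM IPTG and carbenicillin, on E. coli HT115 carrying L4440, the vector without an insert used as the control in feeding RNAi. Day 6 adults had also been on 25 µg/mL FUdR, which blocks DNA synthesis, from L4 onward, so that the effects of age and of FUdR cannot be told apart. In whole animals, fewer cells of a type and less RNA per cell cannot be told apart either.

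The V-ATPase is a rotary proton pump. Its cytosolic V1 part burns ATP, and its membrane-embedded V0 part carries protons across the membrane through a ring of proteolipid (c) subunits that turns against the a subunit. The pump acidifies lysosomes, endosomes and secretory vesicles, and in some epithelia it sits in the plasma membrane and acidifies the space outside the cell. The a subunit also decides where the pump is placed, and in C. elegans its 4 genes are used in different tissues. UNC-32 serves neurons, where the proton gradient drives the loading of synaptic vesicles. VHA-5 acts in the excretory canal and the epidermis, VHA-6 at the apical membrane of the intestine, and VHA-7 in the epidermis and the uterus, with a role in eggshell formation. These roles are background and were not measured here.

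On the WBcel235 assembly, unc-32 (WBGene00006768) lies on the plus strand of chromosome III from 8905615 to 8911756, with 13 merged exons and 6 annotated transcripts. The vha-5 gene (WBGene00006914) is on the plus strand of chromosome IV from 8303968 to 8307371, with 5 merged exons. The vha-6 gene (WBGene00006915) is on the minus strand of chromosome II from 11435210 to 11438452, with 6 merged exons and 1 transcript. The vha-7 gene (WBGene00006916) is on the plus strand of chromosome IV from 12640462 to 12650652, with 25 merged exons and 3 transcripts. The longest proteins annotated for unc-32, vha-5, vha-6 and vha-7 have 905, 873, 865 and 1210 residues. All 4 genes have long transcripts, with merged exon lengths of 3625 bases for unc-32, 2967 for vha-5, 2699 for vha-6 and 3901 for vha-7. On the opposite strand, 38 exonic bases of unc-32 overlap the noncoding RNA gene ZK637.20 and 57 of vha-5 overlap the coding gene F35H10.10, so a few reads of these pairs may not have been told apart. Transcript isoforms of a gene were counted together.

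Total counts were 13043617 to 29247719 in Day 6 adults and 9368922 to 14517986 in L4 larvae. Day 6 libraries resembled one another closely (Pearson's r of 0.96 to 0.97 between log2 CPM values, taken over genes and so not over independent replicates), and the pair of L4 libraries did so less (r = 0.80). The first L4 replicate held fewer counts of long genes. Among genes with 2092 to 2915 exonic bases, the class of vha-6, the median log2 difference from the Day 6 mean was -1.81 in L4 replicate 1 and -0.35 in L4 replicate 2, and among genes with 2916 bases or more, the class of unc-32, vha-5 and vha-7, it was -2.28 and -0.38. Levels are given as CPM, counts scaled to library sizes corrected by TMM, whose factors were 1.03 to 1.63 in Day 6 adults and 0.293 and 1.62 in L4 replicates 1 and 2. Fold changes are Day 6 over L4, from the quasi-likelihood test of edgeR with Benjamini-Hochberg adjustment over 12758 genes, and a gene is said to have risen or fallen where its adjusted p was under 0.05. The median log2 fold change of all tested genes was 0.08. It was -0.22 with upper-quartile and -0.26 with DESeq2 scaling, 0.46 with library size alone and 1.05 without L4 replicate 2.

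Of the 4 a subunit genes, vha-7 rose, vha-6 fell, and unc-32 and vha-5 did not pass the test. All 4 had passed the filter on low counts. Of all tested genes, 14.3% rose and 12.5% fell, 26.9% together, and with upper-quartile scaling 1545 rose and 2054 fell, against 1829 and 1601 with TMM. At an unadjusted p under 0.05, 42.2% of tested genes passed in edgeR. The levels of vha-7 were higher in every Day 6 library than in either L4 library, and those of vha-6 were lower in every Day 6 library. Such an absence of overlap was seen upward in 35.4% and downward in 23.4% of all tested genes.

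The transcript of vha-7 was the scarcest of the 4 at L4 and was within the range of unc-32 and vha-5 per kb of exon at Day 6. It was counted 1920, 1375 and 1071 times in Day 6 replicates 1, 2 and 3, and 23 and 174 times in L4 replicates 1 and 2. After scaling, its level was 63.7, 64.8 and 63.8 CPM in Day 6 adults and 5.402 and 11.5 CPM in L4 larvae. The Day 6 libraries were almost equal after this scaling, while the L4 libraries differed by 2.13-fold and stayed far below them. Unscaled, vha-7 was 1920, 1375 and 1071 of 29247719, 13043617 and 13419940 total counts at Day 6. At L4 it was 23 and 174 of 14517986 and 9368922, so how close the replicates were depended on the scaling. The fitted rise was 7.47-fold (log2 2.90, standard error 0.56, edgeR adjusted p = 0.0116), and 10.97% of all tested genes had a larger one. The rise also passed without L4 replicate 1 (2.56, adjusted p = 2.59e-04, edgeR, with 1 L4 library left and assumed to vary like the Day 6 libraries) and after removal of a trend with exon length (2.13, adjusted p = 0.01000). It passed where replicates numbered alike in the titles formed a block (3.01, adjusted p = 0.0444, edgeR) and not where those numbered alike in the library names did (3.01, adjusted p = 0.0960), nor when any Day 6 library was left out (2.86 to 2.90, adjusted p between 0.0597 and 0.0687) or library size alone was used (3.05, adjusted p = 0.18).

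The intestinal gene vha-6 gave the most abundant a subunit transcript at both ages and was the member that fell. It was counted 6142, 1846 and 2086 times in Day 6 replicates 1, 2 and 3, and 8999 and 5738 times in L4 replicates 1 and 2. Its level was 204, 87.0 and 124 CPM in Day 6 adults, against 2114 and 380 CPM in L4 larvae. The highest Day 6 library lay below the lower of the L4 libraries, which themselves differed by 5.57-fold after TMM scaling. Unscaled, vha-6 was 8999 of 14517986 and 5738 of 9368922 total counts in L4 replicates 1 and 2. The gap between the L4 libraries thus came mostly from their TMM factors, 0.293 and 1.62. On the log2 scale the change was -3.17 (standard error 0.90, edgeR adjusted p = 0.0378). Without L4 replicate 1 the fall was smaller (-1.38, adjusted p = 0.0286, edgeR, with 1 L4 library), and with the length trend removed it was larger (-4.14, adjusted p = 0.0222). The call was lost with the replicate as a block (adjusted p = 0.24 by title numbers and 0.39 by library-name numbers, edgeR) and when any Day 6 library was left out (adjusted p between 0.12 and 0.18). With library size alone the change was smaller and did not pass (-1.87, adjusted p = 0.0633).

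For unc-32, the neuronal form, the libraries of the groups overlapped. Its counts were 2146, 1429 and 944 in Day 6 adults and 114 and 1306 in L4 replicates 1 and 2, which gave levels of 71.3, 67.4 and 56.2 CPM at Day 6 and 26.8 and 86.4 CPM at L4. L4 replicate 1 was thus below and L4 replicate 2 above all those of Day 6. The fitted log2 change was 0.19 (standard error 0.59, edgeR adjusted p = 0.82), and its sign depended on the libraries and the scaling. The change was -0.33 without L4 replicate 1, -0.09 with upper-quartile scaling and -0.46 with the length trend removed. Without L4 replicate 2 it was 1.29, in a fit where the median of all tested genes was 1.05.

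The vha-5 gene, of the excretory canal and epidermis, did not pass either. It had 2379, 1449 and 775 counts in Day 6 adults and 265 and 1635 in L4 larvae. Its level was 79.0, 68.3 and 46.2 CPM in Day 6 adults and 62.2 and 108 CPM in L4 larvae, so that L4 replicate 1 lay within the range of Day 6. The fitted log2 change was -0.40 (standard error 0.51, edgeR adjusted p = 0.57), and it was 0.06 without L4 replicate 2. The median of all tested genes was 1.05 in that last fit. Removal of the length trend gave -1.08 (adjusted p = 0.0940), and -1.04 when L4 replicate 1 was left out as well (adjusted p = 0.0285, edgeR, with 1 L4 library).

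**Figure D1:**
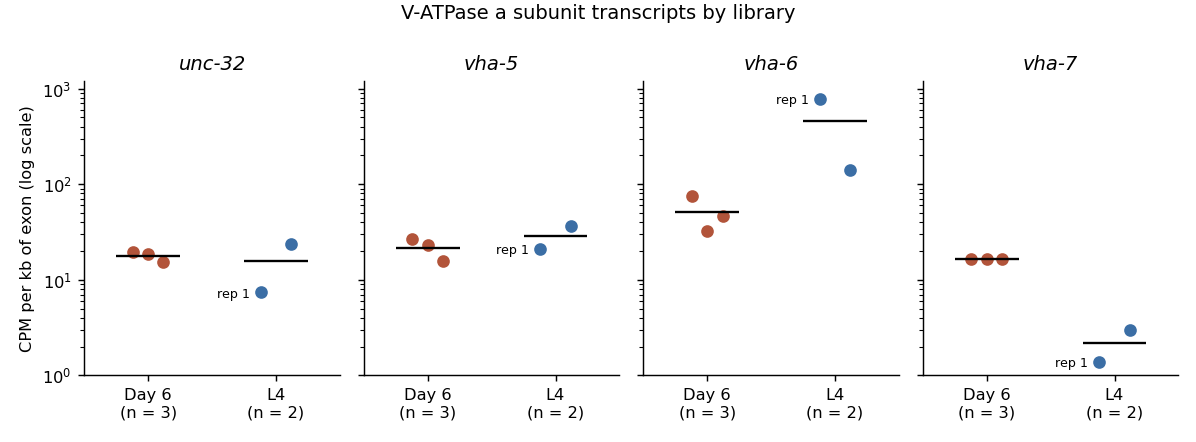
Level of each a subunit transcript in every library, as CPM per kb of exon on a log scale. Points are libraries (3 of Day 6, 2 of L4, with L4 replicate 1 marked) and bars are means. For vha-7 all Day 6 points lie above the L4 points, for vha-6 all lie below them, and for unc-32 and vha-5 the groups overlap.

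To compare the 4 genes with one another, counts were divided by exon length. In Day 6 adults vha-6 led with 51.3 ± 22.1 CPM per kb (SD, n = 3), ahead of vha-5 with 21.7 ± 5.64, unc-32 with 17.9 ± 2.15 and vha-7 with 16.4 ± 0.154. The last 3 had overlapping ranges at Day 6 and could not be ordered, while the lowest vha-6 library was above the highest library of each of them. In L4 replicates 1 and 2, vha-6 stood at 783 and 141 CPM per kb, vha-5 at 20.98 and 36.5, unc-32 at 7.39 and 23.8, and vha-7 at 1.38 and 2.95. The order vha-6, vha-5, unc-32, vha-7 was the same in the L4 libraries, although the ranges of vha-5 and unc-32 overlapped between them.

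Shares of the a subunit transcripts within a library do not depend on the scaling between libraries, though they do on the trend of L4 replicate 1 with gene length. The share of vha-7, in counts per kb, was 11.8%, 18.4% and 17.5% in Day 6 adults, against 0.170% and 1.45% in L4 larvae. The vha-6 transcript made up 54.7%, 35.6% and 49.3% of the pool at Day 6 and 96.3% and 69.0% at L4. For unc-32 the shares were 14.2%, 20.5% and 16.6% at Day 6 and 0.909% and 11.7% at L4. For vha-5 they were 19.3%, 25.4% and 16.6% at Day 6 and 2.58% and 17.9% at L4. The groups did not overlap for vha-7, vha-6 and unc-32 (exact permutation test over the libraries, two-sided, p = 0.2 each), and they overlapped for vha-5 (p = 0.4). With 3 libraries against 2, 0.2 is the smallest p that this test can give. The difference in mean share was 15.1 percentage points for vha-7 and -36.1 for vha-6, and without L4 replicate 1 it was 14.4 for vha-7 and -22.5 for vha-6.

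**Figure D2:**
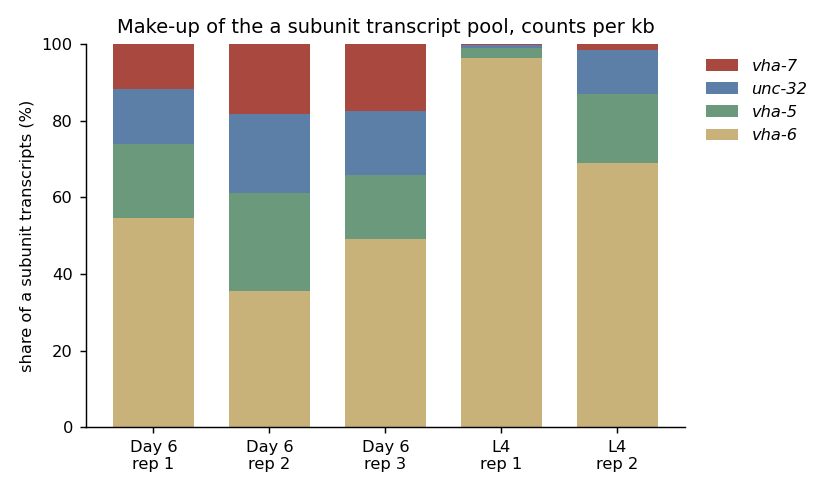
Share of each gene in the summed a subunit transcripts of a library (counts per kb of exon, in %), for 3 Day 6 and 2 L4 libraries. The vha-7 band covers 11.8% to 18.4% at Day 6 and at most 1.45% at L4, and the vha-6 band is the widest in every library.

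Ratios between pairs of the 4 genes were then taken, which leaves out the rest of the transcriptome. In counts per kb, vha-5 stood at 1.63, 1.39 and 0.951 times vha-7 in Day 6 adults and at 15.1 and 12.4 times vha-7 in L4 larvae, where the libraries were close to each other. The ratio of unc-32 to vha-7 was 1.203, 1.12 and 0.949 at Day 6 and 5.33 and 8.08 at L4. For vha-6 over vha-7 it was 4.62, 1.94 and 2.82 at Day 6, against 566 and 47.7 at L4. In all 6 pairs the Day 6 libraries lay entirely to one side of the L4 libraries (exact permutation test, two-sided, p = 0.2 in each, also after adjustment over the 6 pairs).

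The other subunits of the pump were compared next, as a list of 18 genes of V1 and V0. All 18 were tested, 9 fell, 1 rose and 8 did not pass, and 16 had a negative log2 fold change (adjusted p under 0.05, edgeR, beside 12.5% and 14.3% of all genes). Their median log2 fold change was -2.34, against 0.08 for all tested genes. Groups did not overlap for 15 genes that were lower and 1 that was higher at Day 6, beside 23.4% and 35.4% of all tested genes. With the replicate as a block by either numbering none of the 18 fell. Of all 12758 tested genes, 645 fell by title numbers and 359 by library-name numbers. At an unadjusted p under 0.05 none of the 18 fell either (edgeR), where 3303 and 2524 of all genes passed in either direction. Without blocks 15 fell and 1 rose by DESeq2, which called 20.7% of all genes lower and 15.8% higher.

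In V1, genes of 6 subunits fell. The B subunit gene vha-12, whose product helps to bind ATP, had 196, 139 and 145 CPM in Day 6 adults and 2749 and 539 CPM in L4 larvae. It changed by -3.36 on the log2 scale (standard error 0.88, edgeR adjusted p = 0.0297), and by -1.68 without L4 replicate 1. The stalk subunit genes vha-8 (E), vha-10 (G) and vha-14 (D), the C subunit gene vha-11 and the H subunit gene vha-15 fell as well, each at -2.15 or lower, and without L4 replicate 1 they were at -1.97 to -1.19. The catalytic A subunit gene vha-13 was at 367, 244 and 256 CPM in Day 6 adults and 2455 and 700 CPM in L4 larvae and did not pass (-2.45, adjusted p = 0.0577, edgeR), though it did without L4 replicate 1 (-1.198, adjusted p = 0.0325). The F subunit gene vha-9 was at -2.03 (adjusted p = 0.0775).

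The V1 gene that rose was vha-18, which encodes a form of the H subunit like vha-15. It had 615, 452 and 390 counts in Day 6 adults and 1 and 35 in L4 larvae. The levels were 20.4, 21.3 and 23.2 CPM at Day 6 and 0.235 and 2.32 CPM at L4, so that every Day 6 library was above both of L4. The fitted log2 change was 3.91 (standard error 0.85, edgeR adjusted p = 0.0167), with 3.30 without L4 replicate 1 and 6.49 without L4 replicate 2. This rise passed with the replicate as a block by either numbering (adjusted p = 0.0116 and 0.0291) and was lost when any Day 6 library was left out (adjusted p between 0.0610 and 0.0763). Among the a subunit genes as among those of the H subunit, a transcript scarce at L4 (vha-7, vha-18) rose and a more abundant counterpart (vha-6, vha-15) fell. This parallel was drawn after the calls were seen, and the low L4 values of vha-7 and vha-18 also enter their rises. The other a subunit genes, unc-32 and vha-5, did not pass. A second B subunit gene, spe-5, which is known for its role in sperm, did not pass (log2 fold change 0.74, adjusted p = 0.51, edgeR).

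In V0 beside the a subunit, 7 of 8 genes fell by DESeq2 and at an unadjusted p under 0.05 in edgeR, and none rose. After adjustment in edgeR 3 of the 8 fell and none rose. These were vha-4, a proteolipid subunit (-2.61, adjusted p = 0.0471, edgeR), vha-17, the small e subunit (-2.29, adjusted p = 0.0328), and vha-20, a relative of the human accessory protein ATP6AP2 (-2.07, adjusted p = 0.0420). Without L4 replicate 1, vha-4 was at -0.81 and did not pass (adjusted p = 0.0638), and with the length trend removed vha-4 (adjusted p = 0.0534) and vha-17 (-1.30, adjusted p = 0.0562) did not pass. The d subunit gene vha-16 and the accessory subunit gene vha-19 were at -1.85 and -1.41 (adjusted p = 0.0662 and 0.0719, edgeR).

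**Figure D3:**
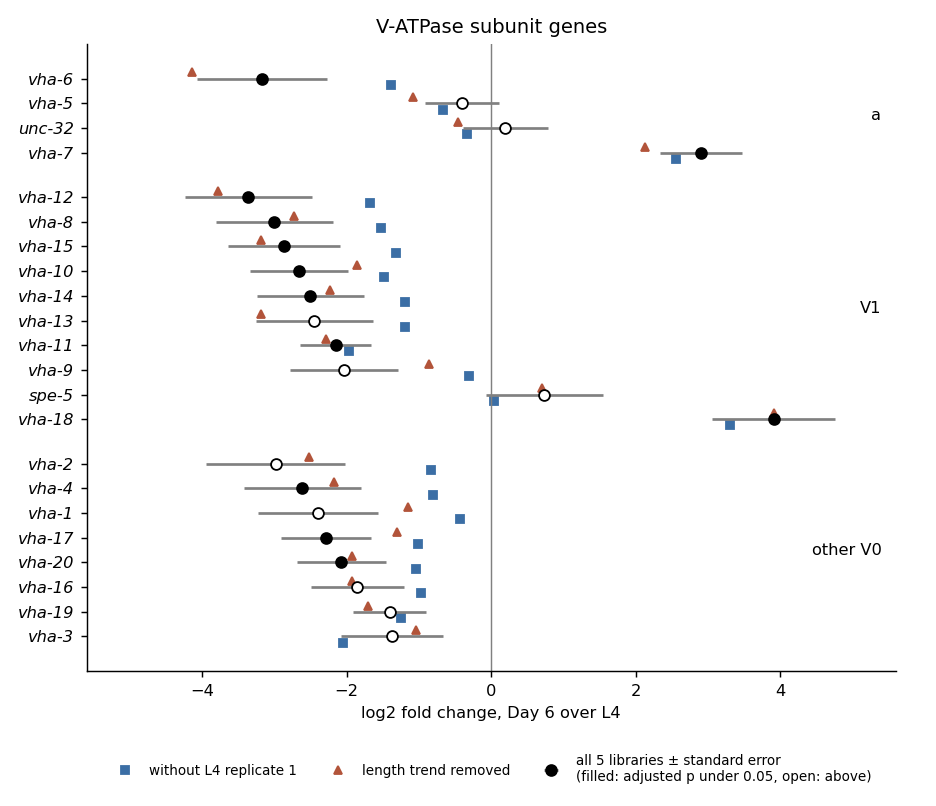
Log2 fold changes, Day 6 over L4, of the 4 a subunit genes, 10 V1 genes and 8 other V0 genes. Circles with standard errors are from all 5 libraries (filled where the adjusted p was under 0.05), squares are without L4 replicate 1 and triangles with the length trend removed. Most genes lie left of 0, and vha-7, vha-18 and spe-5 lie right of it under all 3 settings, spe-5 with no setting shown in which it passed the test.

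Each a subunit gene was then set against the V1 subunits it works with. Per 100 counts per kb of 8 V1 genes (vha-8 to vha-15), vha-7 had 1.67, 2.08 and 2.04 in Day 6 adults and 0.0161 and 0.135 in L4 larvae. The mean log2 ratio of vha-7 was higher by 5.36 at Day 6, and by 3.83 without L4 replicate 1. For vha-6 there were 7.73, 4.04 and 5.74 at Day 6, against 9.11 and 6.46 at L4, and these ranges overlapped (exact permutation test, two-sided, p = 0.4). The mean log2 ratio of vha-6 was lower by 0.44 at Day 6. Against single genes the result for vha-6 depended on the gene chosen. Against vha-16, the V0 d subunit gene, it was lower by 1.05, without overlap (exact permutation test, p = 0.2). The difference was -0.58 against vha-13 and 0.16 against vha-12, with overlap in both (exact permutation test, p = 0.4 and 0.8). The unc-32 transcript had 2.01, 2.33 and 1.93 per 100 at Day 6 and 0.0859 and 1.09 at L4, and vha-5 had 2.72, 2.89 and 1.94 at Day 6 and 0.244 and 1.67 at L4, without overlap in either gene (exact permutation test, p = 0.2 each). All 4 members together had 14.1, 11.3 and 11.7 per 100 at Day 6 and 9.45 and 9.36 at L4. The V1 genes are shorter than the a subunit genes (518 to 2333 exonic bases), and the part of the length trend of L4 replicate 1 in these ratios was not tested.

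The tissues in which the 4 genes are known to act were followed by lists of marker genes. Of all tested genes, 14.3% rose and 12.5% fell in edgeR, and 15.8% rose and 20.7% fell by DESeq2. At an unadjusted p under 0.05 in edgeR 42.2% passed in either direction. With a replicate block 817 of 12758 genes rose and 645 fell by title numbers, and 412 and 359 by library-name numbers. Of 17 neuronal markers none passed the test of edgeR, also at an unadjusted p under 0.05 or by DESeq2 after adjustment, with a median log2 fold change of 0.35, and their summed level was 421 to 656 CPM in Day 6 adults and 1172 and 294 CPM in L4 replicates 1 and 2. This count of 0 rested on having both L4 libraries, since some markers passed when either was left out. More of all tested genes passed in those fits as well, each with 1 L4 library left. Relative to the mean log2 CPM of these markers, unc-32 was 2.81 to 3.08 higher in Day 6 adults and 2.95 and 3.49 higher in L4 larvae. The vesicle transporters that draw on the proton gradient were few in counts. Of 5 tested, only the acetylcholine transporter gene unc-17 passed, at 1.07 to 1.27 CPM in Day 6 adults and 11.04 and 2.71 CPM in L4 larvae (log2 fold change -2.52, adjusted p = 0.0456, edgeR), and without L4 replicate 1 (-1.13, adjusted p = 0.18) or with a replicate block (adjusted p = 0.30 and 0.47) it did not.

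Of 12 intestinal markers 5 fell and none rose in edgeR, beside 12.5% and 14.3% of all tested genes. By DESeq2 8 fell and 1 rose, beside 20.7% and 15.8% of all genes. At an unadjusted p under 0.05 in edgeR 7 fell and 1 rose, where 42.2% of all genes passed in either direction. The median log2 fold change of the 12 markers was -1.74. Their summed level was 2309 to 3850 CPM in Day 6 adults and 40972 and 7384 CPM in L4 larvae. Among them were act-5, the actin of intestinal microvilli (-4.72, adjusted p = 0.0222, edgeR; -2.68 without L4 replicate 1), and ifb-2, an intermediate filament protein below the lumen (-3.34, adjusted p = 0.00927). With a replicate block by either numbering neither passed (adjusted p between 0.10 and 0.44), and 1 of the 12 markers fell. Relative to the mean of these markers, vha-6 was 1.35 to 2.58 higher on the log2 scale in Day 6 adults and 4.40 and 1.81 higher in L4 larvae, so the groups overlapped. The other 7 markers did not pass, with log2 fold changes of -2.86 to 1.72. Most of the summed level came from 1 of these 7, asp-1, with 1748 to 3208 CPM in Day 6 adults and 29685 and 4938 CPM in L4 larvae. The part of the intestine's share of the RNA in the fall of vha-6 was not tested. Of 5 tested genes of proton transport and signaling in or beside the intestine, 3 fell (pept-1, pbo-1 and pbo-5) and none rose. At an unadjusted p under 0.05 in edgeR 4 of the 5 fell, and by DESeq2 4 of 6 tested did, with no rise in either. The peptide transporter PEPT-1 takes up dipeptides with the protons of the lumen, and pept-1 was at 6.08, 10.98 and 2.68 CPM in Day 6 adults and 54.7 and 114 CPM in L4 larvae. This change of -3.68 on the log2 scale passed (standard error 0.69, edgeR adjusted p = 0.0108), and it passed with the replicate as a block by either numbering (adjusted p = 0.0242 and 0.0421). It did not pass without Day 6 replicate 1 (-3.62, adjusted p = 0.0714, edgeR), without Day 6 replicate 3 (-3.32, adjusted p = 0.0593) or with library size alone (-3.45, adjusted p = 0.16). For pbo-1, a regulator of proton exchangers, the log2 fold change was -2.29 (adjusted p = 0.0196) and for pbo-5, part of a receptor for protons on muscle, it was -2.17 (adjusted p = 0.0442), and neither passed with a replicate block (adjusted p between 0.19 and 0.33).

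Markers of the excretory canal did not move one way. Of 8 tested, pgp-12 rose (3.51, adjusted p = 0.0193, edgeR), aqp-8 and exc-9 fell (-2.28 and -2.91, adjusted p = 0.0413 and 0.0198) and 5 did not pass, and aqp-8 did not pass without L4 replicate 1 (-0.93, adjusted p = 0.0868). Of all tested genes 14.3% rose and 12.5% fell with all libraries in edgeR. Without L4 replicate 2 more of the 8 markers rose, as did more of all tested genes, whose median log2 fold change was then 1.05. With a replicate block, pgp-12 passed by the title numbers alone (adjusted p = 0.0464 and 0.0873), and aqp-8 and exc-9 by neither numbering (0.11 to 0.30). Relative to their mean log2 CPM, vha-5 was 3.10 to 3.57 higher in Day 6 adults and 3.92 higher in each L4 library. Of 14 epidermal markers 8 fell and 1, lin-26, a transcription factor gene of epidermal fate, rose (2.06, adjusted p = 0.0248, edgeR; 0.17 and 0.34 with a replicate block), and the falls included the cuticle collagen genes dpy-13 and sqt-3 (-8.09 and -6.65, adjusted p = 0.00354 each, edgeR), which also passed with either block. These collagens are made in bursts at molts. The other falls were of rol-6, dpy-7, noah-1, mlt-10, bli-1 and wrt-2. Another 5 markers, elt-1, elt-3, nhr-23, nhr-25 and che-14, did not pass, with log2 fold changes of -1.58 to 0.88. How far comparisons with the mean of this list rest on the 8 that fell was not tested. The summed level of the 14 markers was 86.3 to 102 CPM in Day 6 adults and 4000 and 2726 CPM in L4 larvae, and relative to their mean log2 CPM vha-5 was 4.03 to 5.37 higher in Day 6 adults and 0.91 and 1.94 higher in L4 larvae.

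The rise of vha-7 was set against the tissues linked to it. None of 6 tested markers of the uterus and vulva passed in edgeR, also at an unadjusted p under 0.05, or in DESeq2, and the summed level of all 7 markers was 28.9 to 30.3 CPM in Day 6 adults and 25.8 and 41.2 CPM in L4 larvae. Relative to their mean log2 CPM, vha-7 was 5.02 to 5.23 higher in Day 6 adults and 1.77 and 2.06 higher in L4 larvae. Eggshell genes were followed as well. Of 13 tested, 11 rose and none fell (12 and 0 by DESeq2, and 13 and 0 at an unadjusted p under 0.05 in edgeR). Of all tested genes 14.3% rose and 12.5% fell, or 15.8% and 20.7% by DESeq2. At the unadjusted p 42.2% passed in either direction. The median log2 fold change of the eggshell genes was 5.11. Their summed level was 8415 to 16605 CPM in Day 6 adults and 320 and 381 CPM in L4 larvae. The most abundant were cpg-2, a chondroitin proteoglycan of the eggshell (42.2-fold, adjusted p = 0.0162, edgeR), and cbd-1, which encodes a chitin-binding protein (47.5-fold, adjusted p = 0.0132). Neither passed with a replicate block (adjusted p = 0.11 and 0.0749 by title numbers, 0.33 and 0.27 by library-name numbers), where 7 and 4 of the 13 genes rose. Relative to the mean of the eggshell genes, vha-7 was lower by 2.13 to 2.86 on the log2 scale in Day 6 adults and by 0.73 and 0.60 in L4 larvae. Of 12 tested germline genes 11 rose and none fell, also by DESeq2 and at an unadjusted p under 0.05, including puf-5, a translational regulator of oocytes, and rme-2, the yolk receptor (log2 fold changes 5.88 and 5.205, adjusted p = 0.00667 and 0.00847, edgeR). With a replicate block 8 rose by title numbers and 4 by library-name numbers, where puf-5 and rme-2 did not pass (adjusted p = 0.1005 and 0.12). Relative to the germline genes, vha-7 was lower by 0.93 to 1.72 in Day 6 adults, while in L4 larvae it was lower by 1.05 in replicate 1 and higher by 0.29 in replicate 2. The part of the larger germline and eggshell signal of Day 6 adults in the rise of vha-7 was not tested.

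**Figure D4:**
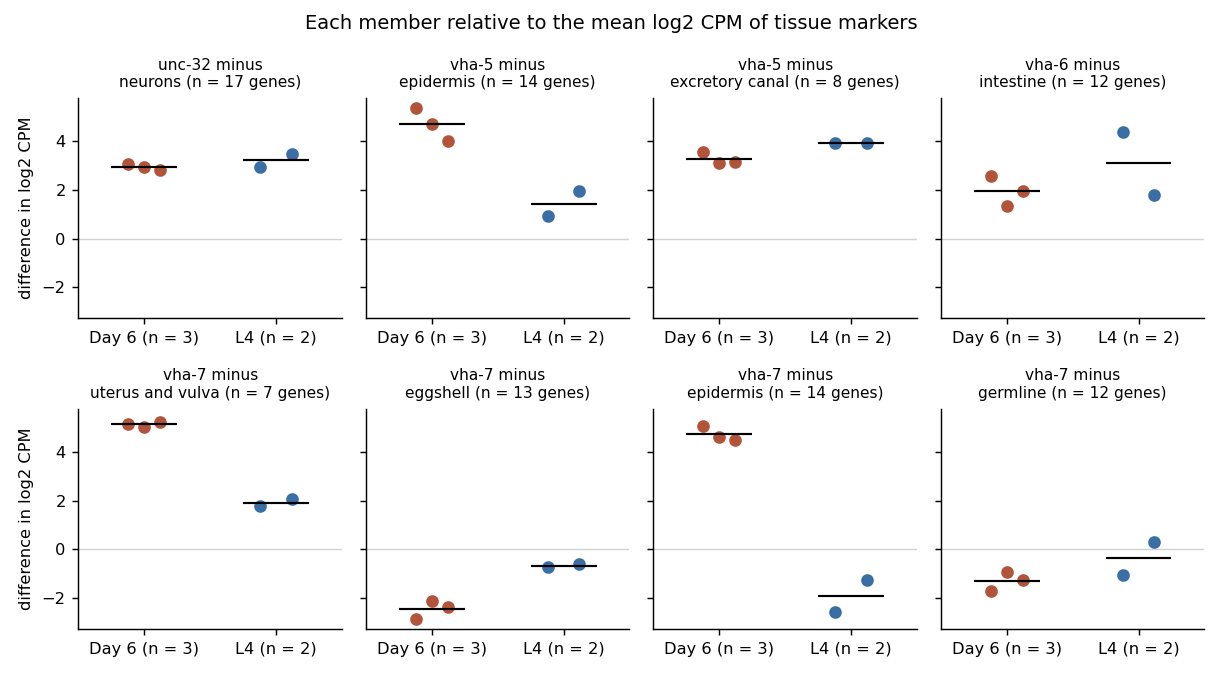
Log2 CPM of each a subunit gene minus the mean log2 CPM of a list of tissue markers, in 3 Day 6 and 2 L4 libraries (points; bars are means). Against uterus and vulva markers and against epidermal markers, 8 of which fell, vha-7 is higher in all Day 6 libraries. Against eggshell genes it is lower in them, and unc-32 against neuronal markers and vha-6 against intestinal markers overlap between the ages.

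For each member, the genes most alike in pattern were sought among 6265 others with a mean of at least 10 CPM, by the root mean square difference of log2 CPM, centered on the gene's mean, over the 5 libraries. The closest to vha-7 were atg-16.2, an autophagy gene, at a difference of 0.0429, zfp-2, which encodes a zinc finger protein, at 0.112, and him-17, which acts in meiotic recombination, at 0.129. The level of atg-16.2 was 31.4, 34.1 and 33.1 CPM in Day 6 adults and 2.82 and 5.69 CPM in L4 larvae, below vha-7 in every library. Closest to vha-6 were the citrate synthase gene cts-1 (0.150), the aspartyl protease gene asp-2 (0.167) and the saposin-like gene spp-4 (0.199). Nearest to unc-32 were iars-1, an isoleucyl-tRNA synthetase gene (0.0881), dlg-1, which encodes a scaffold of epithelial junctions (0.104), and cra-1 (0.108). For vha-5 they were bcat-1, of branched-chain amino acid breakdown (0.106), the myosin chaperone gene unc-45 (0.137) and pes-4 (0.157). These are descriptions over 5 libraries that share their depth and the departure of L4 replicate 1.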

How the data were processed

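The deposited values are whole-number counts per gene and library. To make them the authors depleted rRNA, made strand-specific cDNA, aligned reads to WormBase WS254 with TopHat2 and counted them with featureCounts. Their versions, the strand setting and the rule for multi-mapping reads are not given in the sources used here. Reads of closely related genes may have been shared. Gene names came from WormBase IDs for 17860 features, and lengths and coordinates from the Ensembl annotation of WBcel235.

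Libraries of Day 6 and L4 were fitted with edgeR 4.0.16 (glmQLFit, glmQLFTest; R 4.3.3) after TMM normalization and filterByExpr (minimum count 10, minimum total 15). Standard errors are the log2 fold change divided by the root of the F statistic. Log2 CPM used a prior count of 2, on which differences from marker lists depend for scarce genes. Depth is the total count of each library. The test was also run on simulated counts that held neither the length trend nor the departure of L4 replicate 1. That run therefore does not cover these features of the data, and no result here rests on it. Shares and ratios were computed in Python 3.11.15 and compared by exact permutation.

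Alternatives were RLE, upper-quartile and library size scaling, DESeq2 1.42.0, limma 3.58.1 (voom), no filter, at least 1 CPM in 2 libraries, each library left out, replicate blocks, and removal of the trend with exon length (lowess, span 0.3). Samples of 1 replicate were, by the study's methods, processed together, but titles and library names number the L4 libraries differently. Deviations from the group means correlated at 0.34 and 0.27 between libraries of the same title number and at -0.27 and 0.13 between those of the same library-name number. As L4 has 2 libraries, their deviations are mirror images.

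The members, gene lists and tests were chosen with earlier results of these data known. Named were the 4 members, V-ATPase genes that passed with vha-12 and vha-13, up to 2 risen and 2 fallen genes of each list by mean level, and the 3 genes most alike to each member. Genes named beyond this rule were added after their values were seen. They were vha-1, vha-2, vha-3, vha-9, vha-16, vha-19, spe-5, pbo-5, asp-1 and the epidermal markers other than dpy-13, sqt-3 and lin-26. Promoter motifs were not analysed here. The labels and methods call the replicates independent, with no further detail of cultures.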

Additional observations from a re-analysis of the deposited data

How the results depend on the processing

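Counts of calls rest on 2 L4 libraries of unlike quality, and the cause of each change below was not tested. Leaving out a Day 6 library removed the calls of vha-7 and vha-6, while their directions held in every alternative. Across the libraries left out in turn, log2 fold changes ran from 2.56 to 3.57 for vha-7, from -3.92 to -1.38 for vha-6, from -0.33 to 1.29 for unc-32 and from -0.67 to 0.060 for vha-5. They ran from -2.05 to 0.34 for vha-3, whose sign turned without L4 replicate 2, and the sign of vha-5 turned there too. In that fit the median of all tested genes was 1.05. With library size alone vha-7 was at 3.05 (adjusted p = 0.18, edgeR) and vha-6 at -1.87 (adjusted p = 0.0633). With the replicate block by library-name numbers vha-7 was at 3.01 and vha-6 at -3.11, and with the replicate block by title numbers vha-6 was at -2.75. The sign of unc-32 turned with upper-quartile scaling (-0.093), with the length trend removed (-0.46) and when L4 replicate 1 was left out as well (-0.76), where vha-5 passed at -1.04.

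Of the 4 members, 1 rose and 1 fell in the edgeR test of all libraries. The count of rises was 0 with library size alone and with the replicate block by library-name numbers, and 0 to 2 with libraries left out. The count of falls was 0 with library size alone and with either replicate block, 2 with the length trend removed without L4 replicate 1, and 0 to 1 with libraries left out. Of the other V-ATPase genes, the 1 rise was 0 with library size alone and 0 to 2 with libraries left out. Against 9 falls there were 14 with upper-quartile scaling, 15 with DESeq2, 1 with library size alone, 0 with either replicate block and 0 to 15 with libraries left out. Over the tissue and pathway lists, 24 genes rose and 24 fell. The rises were 12 with library size alone, 8 with the replicate block by library-name numbers and 9 to 44 with libraries left out. The falls were 8 with library size alone, 10 with either replicate block and 7 to 33 with libraries left out.

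Shares kept their direction with coding length and with no scaling by length, where the difference of vha-7 was 18.8 percentage points. With libraries left out it was 13.9 to 17.1 for vha-7, -49.8 to -22.5 for vha-6, 5.43 to 16.2 for unc-32 and 2.57 to 17.9 for vha-5. Log2 ratios to the V1 genes then differed by 3.83 to 6.90 for vha-7, -0.69 to -0.19 for vha-6, 0.93 to 4.60 for unc-32 and 0.57 to 3.35 for vha-5.

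Over all tested genes, 1829 rose and 1601 fell. There were 150 and 175 with library size alone, 817 and 645 with the replicate block by title numbers, 412 and 359 by library-name numbers, 2306 and 3015 with DESeq2, 3571 and 3433 with the length trend removed without L4 replicate 1, and 240 to 4837 and 298 to 3450 with libraries left out.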

Other observations

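The proteolipid genes of the c ring, vha-1, vha-2 and vha-3, are closely related and may have shared reads, so their separate counts are uncertain. The most abundant, vha-2, was at 289, 171 and 223 CPM in Day 6 adults and 3173 and 429 CPM in L4 larvae (log2 fold change -2.98, adjusted p = 0.0539, edgeR). The levels of vha-3 were 29.3, 50.1 and 39.1 CPM in Day 6 adults and 31.2 and 173 CPM in L4 larvae. L4 replicate 1 was thus the higher L4 library for vha-2 and the lower for vha-3, with 133 counts of vha-3 there and 2612 in L4 replicate 2.

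By DESeq2, and at an unadjusted p under 0.05 in edgeR, 5 of 10 markers of body wall muscle fell and none rose. Of all tested genes 20.7% fell by DESeq2, and 42.2% passed at the unadjusted p in either direction. After adjustment in edgeR 4 of the 10 fell and none rose, beside 12.5% and 14.3% of all genes. Among the 4 were lev-11, a tropomyosin (-3.77, adjusted p = 0.0351, edgeR), and mup-2, a troponin T (-3.92, adjusted p = 0.0140). Without L4 replicate 2 more of the 10 markers passed in both directions, as did more of all tested genes. None of the 10 passed with a replicate block by either numbering, and 1 fell at an unadjusted p under 0.05 in each. Of 3 tested sperm genes, spe-11 passed, at 0.498 to 1.41 CPM in Day 6 adults and 1.17 and 20.4 CPM in L4 larvae (-3.38, adjusted p = 0.0499), and it was lost on removal of the trend with length (adjusted p = 0.0593) or with a replicate block (adjusted p = 0.19 and 0.56). L4 replicate 1 lay within the range of Day 6, and without L4 replicate 2 the log2 fold change was -0.16 (adjusted p = 0.90).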
